A study of Homo sapiens with 4 samples.

Results

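The genes described are the 4 PIAS ligase genes PIAS1, PIAS2, PIAS3 and PIAS4, the modifier genes SUMO2 and SUMO3, and SAE1 and UBA2, which encode the activating enzyme. They were chosen by symbol, 8 of the 33538 genes listed in the matrices, with levels of PIAS2 in these libraries already known, so their differences between libraries are given as a description. Small ubiquitin-like modifier (SUMO) proteins are joined to other proteins, many of them nuclear, by a short enzyme chain. The SAE1 and UBA2 heterodimer activates the modifier before it is conjugated, and ligases such as the PIAS proteins help to choose the target, while SENP proteases remove it. PIAS proteins were first known as inhibitors of activated STAT factors, and several are known to bind the androgen receptor and to change its activity.

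Their levels in drug-naive, briefly treated and resistant cells were compared by single-cell RNA sequencing (scRNA-seq) of the human prostate cancer line LNCaP, with 1 library in each of 4 groups and therefore no replicates and no test. LNCaP denotes parental cells given the solvent DMSO (0.1%) for 48 h. LNCaP-ENZ48 denotes the same line given 10 µM enzalutamide (ENZ), an inhibitor of the androgen receptor, for 48 h. RES-A and RES-B are ENZ-resistant derivatives of LNCaP kept in 10 µM ENZ, of which RES-A was raised by passage in rising ENZ and RES-B by constant exposure to the related inhibitor RD-162. Each is a single derived line, so line and resistance cannot be told apart.

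The 4 libraries held 1782 to 4569 kept cells and 50208831 to 60838227 unique molecular identifiers (UMIs, each standing for 1 captured RNA molecule). LNCaP cells were the deepest, with a median of 27079.5 UMIs against 12138 to 13676 in the other libraries, and its lower limit for keeping a cell was also set higher. Between 8 and 20 kept cells per library carried a barcode that also occurred in another library. Luminal prostate markers were present in all libraries (KRT8, KRT18, HOXB13 and FOLH1 at 92.0 to 918 CPM), but the androgen-induced KLK3 was at 2 UMIs in RES-A. Of 10 immune, stromal, endothelial and basal markers, 4 to 6 were at 0 in each library, and their summed level was 1.99 to 4.66 CPM, most of it COL1A1. Levels are UMIs summed over the kept cells and given per 1000000 UMIs of the library (CPM), brackets hold 95% intervals, and both intervals and shares cover counting error only. UMIs were counted near the 3' end, so levels are compared between libraries and not between genes.

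PIAS2, whose protein is also called PIASx, had the widest range of the 8 genes. It lies on the minus strand of chromosome 18 (chr18:46803218-46920160, GRCh38, ENSG00000078043), and its canonical transcript has 14 exons. The promoter window of PIAS2 is shown because this gene varied most between the libraries. It spans 250 bases before to 50 bases after the start site in RefSeq (GRCh38.p14, chr18:46917458-46917757, minus strand), and capitals mark the E-box letters CACGTG.

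PIAS2 promoter: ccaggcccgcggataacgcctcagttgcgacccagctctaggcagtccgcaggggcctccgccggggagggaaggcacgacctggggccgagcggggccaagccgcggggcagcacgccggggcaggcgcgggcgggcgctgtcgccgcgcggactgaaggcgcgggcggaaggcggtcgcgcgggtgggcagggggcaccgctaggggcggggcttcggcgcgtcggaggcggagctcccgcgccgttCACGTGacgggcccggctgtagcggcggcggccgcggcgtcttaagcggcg

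This window had a GC content of 79.0%, against a median of 58.67% over 35116 promoters. CACGTG reads the same on both strands and holds ACGTG, the core letters of the element bound by hypoxia-inducible factors. Both CACGTG and ACGTG were searched on both strands. CACGTG was also in the windows of PIAS4 and SUMO3 and in 7.256% of all promoters. ACGTG was in windows of PIAS1, PIAS2, PIAS3, PIAS4, SUMO2 and SUMO3, and in 21.41% of all promoters, so these letters do not set PIAS2 apart from the other PIAS genes. A second RefSeq window of PIAS2 (chr18:46920096-46920395), with a GC content of 46.0%, held neither. UBA2 has a window without either motif, and SAE1 was not matched.

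PIAS2 was at 55.4 CPM [53.4, 57.4] in RES-B, 26.7 CPM [25.4, 28.1] in RES-A, 33.6 CPM [32.2, 35.1] in LNCaP-ENZ48 and 40.3 CPM [38.6, 42.1] in LNCaP. No 2 of these intervals overlapped, and RES-B was 2.07-fold above RES-A. The short-term treated cells thus lay between the parental cells and RES-A, and the 2 resistant lines were the lowest and the highest. As log2 ratios to LNCaP, PIAS2 was at 0.46 [0.38, 0.54] in RES-B, -0.59 [-0.69, -0.50] in RES-A and -0.26 [-0.35, -0.17] in LNCaP-ENZ48. The gene KATNAL2, which overlaps PIAS2 on the other strand, was at 0.674 to 4.13 CPM and was higher in both resistant lines than in LNCaP and LNCaP-ENZ48.

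PIAS1 and PIAS3, which encode ligases of the same family, had the same order of libraries over a narrower range. PIAS1 (chr15:68054309-68198603) was at 21.7 CPM [20.5, 23.0] in RES-B, 16.8 [15.8, 17.9] in RES-A, 18.3 [17.2, 19.4] in LNCaP-ENZ48 and 19.3 [18.1, 20.5] in LNCaP. Neighbours in the order of level had overlapping intervals, while RES-B and RES-A did not overlap. PIAS3 (chr1:145848522-145859836) was at 10.98 CPM [10.1, 11.9] in RES-B, 7.62 [6.92, 8.37] in RES-A, 8.70 [7.97, 9.47] in LNCaP-ENZ48 and 9.002 [8.19, 9.87] in LNCaP. RES-B was the only library whose PIAS3 interval was clear of the other 3. With every cell thinned to 5000 UMIs in a single random draw, which leaves fewer UMIs, these orders differed. The PIAS1 log2 ratio of RES-B to LNCaP was then -0.155 [-0.39, 0.09], in place of 0.17 [0.05, 0.30]. PIAS3 was at 0.0432 UMIs per cell in LNCaP and 0.0457 in LNCaP-ENZ48, a log2 ratio of 0.08 [-0.31, 0.48]. With each cell weighted equally both orders were kept. The ratio to LNCaP was then 0.19 [0.07, 0.32] for PIAS1 in RES-B and -0.07 [-0.25, 0.12] for PIAS3 in LNCaP-ENZ48.

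PIAS4 (chr19:4007736-4039386) had another order, with both resistant lines highest. Its levels were 12.2 CPM [11.2, 13.2] in RES-B, 12.5 [11.6, 13.4] in RES-A, 10.2 [9.42, 11.04] in LNCaP-ENZ48 and 10.9 [9.96, 11.8] in LNCaP. All neighbours in the order of level had overlapping intervals, and RES-A was 1.22-fold above LNCaP-ENZ48.

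The sum of the 4 PIAS genes was 100.2 CPM in RES-B, 63.6 in RES-A, 70.8 in LNCaP-ENZ48 and 79.4 in LNCaP. Within this sum, which no choice of library scaling can change, PIAS2 made up 55.2% [53.9, 56.6] in RES-B, 42.0% [40.4, 43.6] in RES-A, 47.5% [46.0, 49.0] in LNCaP-ENZ48 and 50.7% [49.2, 52.3] of UMIs in LNCaP. PIAS4 made up 12.1% in RES-B, 19.6% in RES-A, 14.4% in LNCaP-ENZ48 and 13.7% in LNCaP. In RES-A the family was thus shifted from PIAS2 towards PIAS4, and in RES-B towards PIAS2. PIAS1 made up 21.7% to 26.5% and PIAS3 10.9% to 12.3%.

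**Figure D1:**
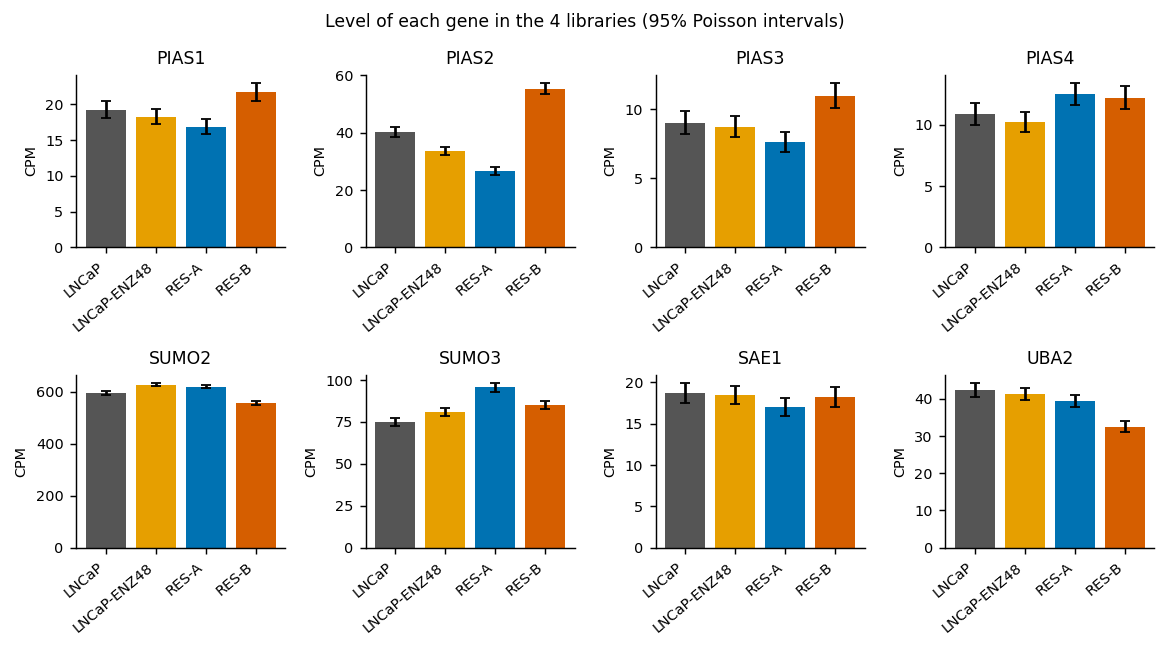
Level of each of the 8 genes (vertical axis, CPM, starting at 0) in the 4 libraries; bars are the UMIs summed over all kept cells of 1 library and error bars are 95% Poisson intervals. PIAS2 ranges from 26.7 CPM in RES-A to 55.4 CPM in RES-B with no overlap between libraries, while SAE1 stays between 17.04 and 18.7 CPM.

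SUMO2 and SUMO3 encode near-identical modifiers that can form chains. SUMO2 (chr17:75165586-75182959) was at 556 CPM [550, 563] in RES-B, 620 [613, 626] in RES-A, 627 [621, 633] in LNCaP-ENZ48 and 595 [589, 602] in LNCaP. The whole range was 1.13-fold. Counts of SUMO2 are uncertain as levels, since 19 SUMO2 pseudogenes are annotated and JPT1 overlaps it on the same strand. SUMO3 (chr21:44805617-44818779) was at 85.1 CPM [82.6, 87.6] in RES-B, 95.6 [93.1, 98.2] in RES-A, 80.8 [78.5, 83.1] in LNCaP-ENZ48 and 74.97 [72.6, 77.4] in LNCaP. LNCaP was lowest, RES-A highest, and only LNCaP-ENZ48 and RES-B had overlapping intervals. SUMO3 made up 11.2% and 11.4% of the UMIs of both modifiers in LNCaP and LNCaP-ENZ48, and 13.4% and 13.3% in RES-A and RES-B.

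SAE1 and UBA2 encode the subunits of 1 enzyme. SAE1 (chr19:47113274-47210636) was at 18.2 CPM in RES-B, 17.04 in RES-A, 18.4 in LNCaP-ENZ48 and 18.7 in LNCaP, and all neighbours in the order of level had overlapping intervals. UBA2 (chr19:34428352-34471251), the catalytic subunit, was at 32.5 CPM [31.0, 34.1] in RES-B, 39.3 [37.7, 40.9] in RES-A, 41.3 [39.7, 43.0] in LNCaP-ENZ48 and 42.4 [40.6, 44.2] in LNCaP. Only RES-B stood apart from the other libraries. The share of UBA2 in the UMIs of both subunits was 69.1% to 69.7% in the other 3 libraries and 64.1% [62.2, 65.9] in RES-B.

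To place these differences against the rest of the transcriptome, those genes averaging 10 CPM or more over the 2 libraries compared were counted as higher or lower where the log2 ratio was at least 0.32 in size and its interval did not include 0. PIAS3 was under the minimum in all 6 comparisons, so 7 of the 8 genes were counted. None of the 7 passed in LNCaP-ENZ48 against LNCaP, where 3.97% of 7282 genes were higher and 13.0% lower. In RES-A against LNCaP, SUMO3 was higher (0.35 [0.29, 0.41]) and PIAS2 lower, against 25.3% and 23.0% of 7428 genes. For RES-B against LNCaP, PIAS2 was higher and UBA2 lower (-0.38 [-0.48, -0.29]), against 30.7% and 17.4% of 7570 genes. Since the genes were selected on these libraries, nothing is read from the counts. The SUMO3 ratio of RES-A was under that limit with TMM scaling (0.30) and with DESeq2 size factors (0.31), and PIAS2 kept its direction under each scaling in both resistant lines.

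RES-B against RES-A compares the 2 resistant lines directly. PIAS2 (1.05 [0.96, 1.14]) and PIAS1 (0.37 [0.24, 0.49]) were higher in RES-B, where 27.3% of 7508 genes were higher and 14.4% lower. The PIAS2 ratio was above that of 97.15% of these genes. PIAS1 was under the limit with TMM scaling (0.315) and with DESeq2 size factors (0.308). Against LNCaP-ENZ48, which was exposed to the same drug concentration, RES-A was lower for PIAS2 (-0.33 [-0.43, -0.24]), with 31.2% of 7304 genes higher and 17.5% lower. This PIAS2 ratio was under the limit among G1 cells (-0.27) and without the cells highest in the low-oxygen genes (-0.21 [-0.33, -0.10]). RES-B was higher for PIAS2 (0.72 [0.64, 0.80]) and lower for UBA2 (-0.35 [-0.44, -0.26]) than LNCaP-ENZ48, with 39.1% of 7445 genes higher and 13.7% lower. These comparisons share libraries with those above, so they hold no separate evidence.

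**Figure D2:**
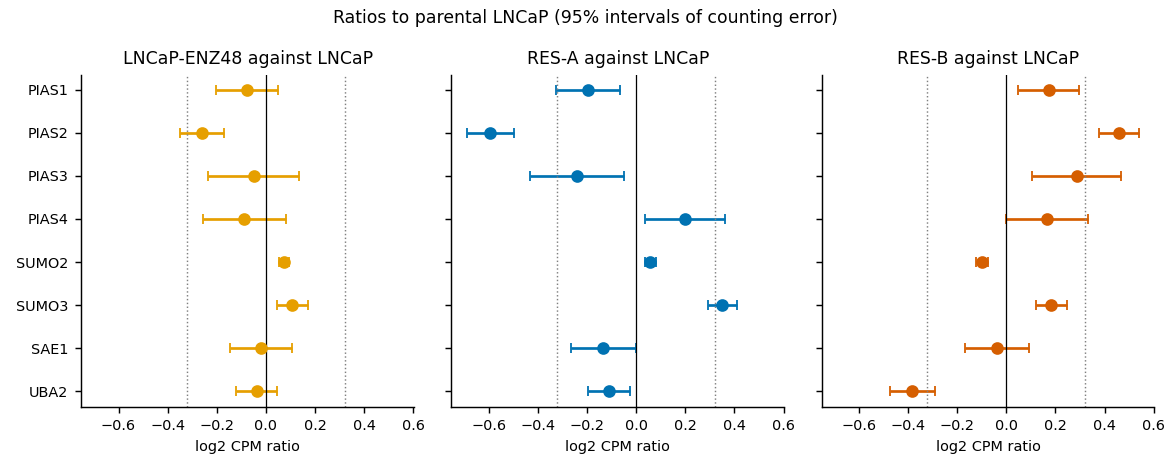
Log2 CPM ratio (horizontal axis) of each gene in LNCaP-ENZ48, RES-A and RES-B against LNCaP, with 95% intervals of counting error; dotted lines mark a log2 ratio of 0.32 in either direction. PIAS2 lies at -0.26, -0.59 and 0.46 in the 3 panels, and UBA2 passes the lower line in RES-B alone, at -0.38.

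Whether the surrounding genes moved with each gene was examined with the 25 nearest counted protein-coding genes on each side (fewer at the end of chromosome 21), as the median log2 ratio to LNCaP relative to all such genes. Around PIAS2, that median was -0.47 in RES-A, where PIAS2 itself was at -0.62 on the same scale and above 46.0% of its surroundings. In RES-B the region was at -0.04 and PIAS2 at 0.34, above 84.0% of its surroundings. The quartiles of the genes around PIAS2 were -0.92 and -0.04 in RES-A, and -0.34 and 0.21 in RES-B. These genes span a wide stretch (chr18:23598926-62587709 in RES-A against LNCaP). In RES-B against RES-A the region was at 0.40 and PIAS2 at 0.96, above 86.0% of its surroundings. A regional cause was not tested. Genes around SUMO3 were at 0.41 in RES-A, with SUMO3 above 36.1% of them, and at 0.31 in RES-B, with SUMO3 above 27.0%. Those around PIAS1 were at -0.43 in RES-A and -0.30 in RES-B, and in RES-B PIAS1 was above 94.0% of them. UBA2 in RES-B was at -0.50 within a region at 0.02, above 6% of its surroundings. DNA copy number was not measured in these files.

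PIAS2 levels also differed between cells of the same library. With every cell thinned to 5000 UMIs, the variance of PIAS2 divided by its mean was 1.23 in RES-B, 1.00 in RES-A, 1.09 in LNCaP-ENZ48 and 1.09 in LNCaP, where a value of 1 is that of random counting. In RES-B this was above 95.87% of 1719 genes of like mean (within 1.5-fold), and a single cell held up to 5 PIAS2 UMIs. PIAS2 was above 92.71% of such genes in LNCaP-ENZ48, 88.85% in LNCaP and 35.02% in RES-A. Thinned to 2000 UMIs instead, the variance divided by the mean was 1.06 in RES-B. A PIAS2 UMI was found in 18.7% [16.9, 20.6], 16.5% [15.4, 17.7], 12.7% [11.7, 13.6] and 23.4% [22.1, 24.7] of these cells, in the order parental, treated, RES-A, RES-B. Without thinning the shares were 62.5%, 35.8%, 27.4% and 44.96%, and no cell type in these lines lacks the gene to give a background. The ratio was 0.965 to 1.03 for PIAS1, PIAS3 and PIAS4, and 0.998 to 1.06 for SUMO3, SAE1 and UBA2, in all libraries. For SUMO2, with its far higher mean, it was 1.09 to 1.13, under the median of genes of like mean in every library.

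The genes that varied with PIAS2 from cell to cell were found by correlating log-transformed counts of the thinned cells with those of 4177 genes. The 5 genes with the highest mean correlation were BNIP3, LDHA, PGK1, GAPDH and ENO1. BNIP3 is a mitophagy receptor induced by low oxygen, and the other 4 encode enzymes of glycolysis and lactate formation. For BNIP3, Pearson's r was 0.135 in LNCaP (1782 cells), 0.141 in LNCaP-ENZ48 (4315 cells), 0.0995 in RES-A (4569 cells) and 0.314 in RES-B (4061 cells). These are correlations over cells of 1 library each, with the sparseness of thinned counts, and are weak outside RES-B. The nuclear RNAs MALAT1 (mean r 0.105, and 0.198 in RES-B) and NEAT1 (0.100) were also among the 12 highest, and the mitochondrial MT-CYB was the lowest (mean r -0.149). The part of RNA quality in these values was not tested. For the other 3 PIAS genes no gene had a mean r over 0.035. These genes, and the list used next, were chosen after their values were seen.

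To describe this without single-gene sparseness, the cells of each library were ranked by the summed share of 18 genes known to be induced by low oxygen (PGK1, LDHA, ENO1, ALDOA, PDK1, SLC2A1, BNIP3, BNIP3L, NDRG1, P4HA1, CA9, VEGFA, ANKRD37, EGLN3, ADM, KDM3A, MXI1 and FAM162A) and split into 4 bins of equal cell number, from the lowest share (bin 1) to the highest (bin 4). In RES-B, PIAS2 was at 33.5, 31.8 and 38.8 CPM in bins 1 to 3 and at 128 CPM [122, 135] in bin 4. Bin 4 was also the highest in each other library. Parental LNCaP had 34.7, 32.0 and 34.1 CPM and then 61.4 CPM [57.1, 66.0]. LNCaP-ENZ48 had 26.6, 26.1 and 28.9 CPM and then 54.97 CPM [51.2, 59.0]. RES-A had 23.9, 22.2 and 24.0 CPM and then 37.3 CPM [34.1, 40.6]. As log2 ratios of bin 4 to bin 1, these were 1.93 [1.78, 2.09] in RES-B, 0.64 [0.44, 0.85] in RES-A, 1.05 [0.87, 1.22] in LNCaP-ENZ48 and 0.83 [0.65, 1.00] in LNCaP. The largest step was therefore between bins 3 and 4. Bins 1 to 3 had overlapping intervals in LNCaP, LNCaP-ENZ48 and RES-A, while in RES-B bin 3 [35.6, 42.2] lay above bin 2 [28.9, 34.9].

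PIAS1, PIAS3 and PIAS4 did not follow this pattern. Their log2 ratios of bin 4 to bin 1 lay between -0.20 and 0.18, with intervals that included 0 in all 4 libraries. The list was chosen after the genes correlated with PIAS2 were seen, and it holds several of them. No list was chosen in this way for PIAS1, PIAS3 or PIAS4. A rise of PIAS2 in bin 4 was thus favoured in advance, so the contrast cannot show a trait particular to PIAS2. For the other members, SUMO3 was at -0.23 [-0.36, -0.10] in RES-B and 0.16 [0.04, 0.27] in LNCaP-ENZ48, and UBA2 at 0.36 [0.18, 0.54] in LNCaP and 0.22 [0.02, 0.42] in RES-B, while SAE1 intervals included 0 throughout. SUMO2 was at 0.13 [0.08, 0.17] in LNCaP and between -0.03 and 0.05 in the other 3 libraries. Bin 4 of RES-B also had fewer UMIs per cell (median 10585, against 12180 to 13185 in its other bins) and a lower mitochondrial share (median 9.54%, against 12.6% to 13.0%), with 71.9% of its cells in G1 against 67.0% to 70.8%. Bin 4 was also lower in both measures in LNCaP (25878.5 UMIs against 26822 to 27904, and 8.78% against 9.95% to 10.01%) and in LNCaP-ENZ48 (12360 UMIs against 13886 to 14429.5, and 8.50% against 9.54% to 9.62%). The part of depth and mitochondrial share in the PIAS2 values was not tested.

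**Figure D3:**
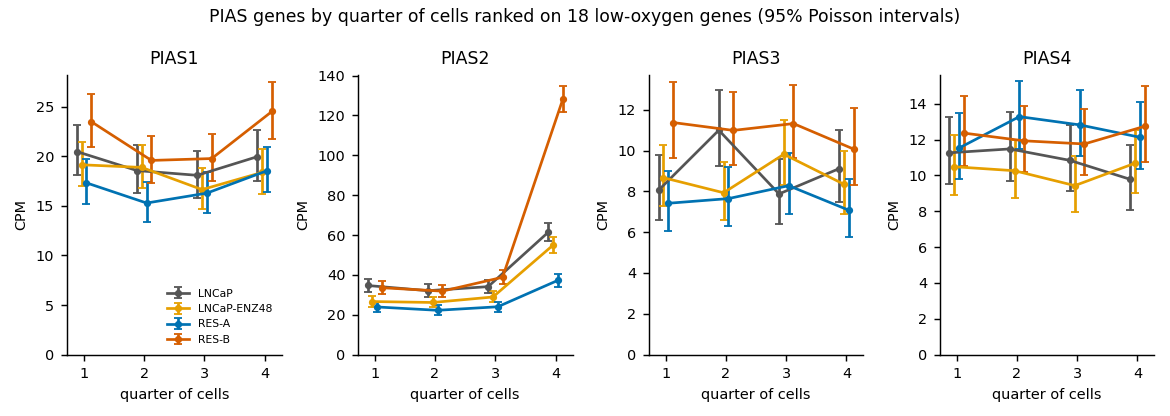
Level of the 4 PIAS genes (vertical axes, CPM, starting at 0) in 4 equal bins of the cells of each library, ranked from lowest (1) to highest (4) share of the 18 low-oxygen genes; points are summed UMIs and error bars 95% Poisson intervals. PIAS2 reaches 128 CPM in bin 4 of RES-B, while PIAS1, PIAS3 and PIAS4 have bin 4 to bin 1 intervals that include no difference.

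The libraries differed in how many cells had a high level of these 18 genes. Their summed level was 3448 CPM in RES-B, 2137 in RES-A, 2437 in LNCaP-ENZ48 and 2364 in LNCaP. With limits set over the cells of all libraries together, 34.77% of RES-B cells were above the highest limit (24.8 UMIs per 10000), against 19.81% of LNCaP, 23.31% of LNCaP-ENZ48 and 19.94% of RES-A cells. In the 3 bins under that limit, PIAS2 in RES-B against LNCaP was at 0.03 [-0.17, 0.24], -0.10 [-0.30, 0.10] and 0.03 [-0.17, 0.24], and above it at 0.54 [0.41, 0.67]. Summed over all cells under the limit, the ratio was -0.01 [-0.12, 0.11]. In CPM, the higher PIAS2 level of RES-B than of LNCaP was thus measured in the cells with high levels of low-oxygen genes. No difference in CPM was detectable in the rest, where the median ratio of all counted genes was itself 0.0998. Against the other 2 libraries, RES-B stayed higher in CPM among the cells under the limit, at 0.29 [0.18, 0.41] for LNCaP-ENZ48 and 0.51 [0.39, 0.63] for RES-A. With these cells the median ratio of all counted genes was itself 0.20 against LNCaP-ENZ48 and 0.085 against RES-A. Other scalings were not run on these cells. Above the limit the bins are not fully matched, since RES-B cells there had a median of 72.9 of these UMIs per 10000 and LNCaP cells 50.5.

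The lower PIAS2 levels of RES-A and LNCaP-ENZ48 than of LNCaP were measured in all 4 of these bins. RES-A against LNCaP was at -0.54, -0.54 and -0.49 in the 3 lower bins and at -0.79 in the highest, and all 4 intervals excluded 0. LNCaP-ENZ48 against LNCaP was at -0.29, -0.34, -0.27 and -0.29, again with intervals that excluded 0. The bins used CPM alone, and TMM scaling moved the median of all counted genes by 0.096 in this comparison. RES-B against RES-A was at 0.58, 0.44 and 0.52 in the lower bins and at 1.33 [1.18, 1.48] in the highest. The highest bin was not matched for RES-A either, whose cells there had a median of 33.1 of these UMIs per 10000, against 50.5 in LNCaP and 72.9 in RES-B. With all cells split into 10 bins, PIAS2 in LNCaP was between 31.4 and 37.2 CPM in the first 8, then at 52.6 and 108 CPM. RES-B was between 28.9 and 37.3 CPM in the first 8, then at 65.8 and 139 CPM. In bins 9 and 10, RES-B against RES-A was at 0.54 [0.30, 0.78] and 0.92 [0.58, 1.27]. RES-A against LNCaP was at -0.22 [-0.47, 0.04] and -0.55 [-0.93, -0.19] in these bins. LNCaP-ENZ48 against LNCaP was at -0.05 [-0.30, 0.20] and -0.50 [-0.72, -0.28] there, and its interval included 0 in several of the first 8. The limits cut a continuous measure, and 785 cells lay within 5% of the highest of the 3.

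**Figure D4:**
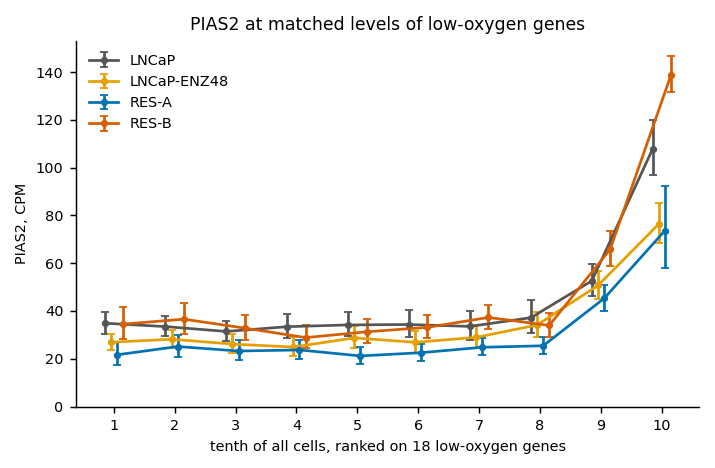
PIAS2 level (vertical axis, CPM, starting at 0) in 10 bins of the cells of all libraries together, ranked by the share of the 18 low-oxygen genes (horizontal axis), for each library; error bars are 95% Poisson intervals. RES-B and LNCaP have overlapping levels in bins 1 to 8 and both are highest in bin 10, at 139 and 108 CPM, while RES-A lies below both in all 10.

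Cell cycle phase was called from the S (43 genes) and G2/M (54 genes) lists of Seurat, which hold none of the 8 genes. SAE1, UBA2 and SUMO2 were higher in S and in G2/M cells than in G1 cells of their own library in 4 of 4, with intervals that excluded 0. SAE1 was at log2 ratios of 0.53 to 0.83 in G2/M and 0.32 to 0.61 in S. As an example, RES-B had 16.2 CPM of SAE1 in G1, 20.2 in S and 23.4 in G2/M. UBA2 was at 0.39 to 0.60 in G2/M and 0.26 to 0.49 in S, and SUMO2 at 0.21 to 0.26 and 0.10 to 0.18. SUMO3 was higher in 2 of 4 libraries in either phase.

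No PIAS gene differed from G1 with an interval that excluded 0 in more than 2 libraries, although PIAS3 values in S were below 0 in all 4. PIAS3 was lower in S than in G1 in 2 libraries (1 when each library was scored alone), and PIAS2 in 1. The lower UBA2 level of RES-B was also present among cells called G1 (-0.41), at 29.3 CPM against 38.9 CPM in LNCaP. The G1 share was 69.5% in RES-B, 63.3% in RES-A, 78.7% in LNCaP-ENZ48 and 69.1% in LNCaP.

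**Figure D5:**
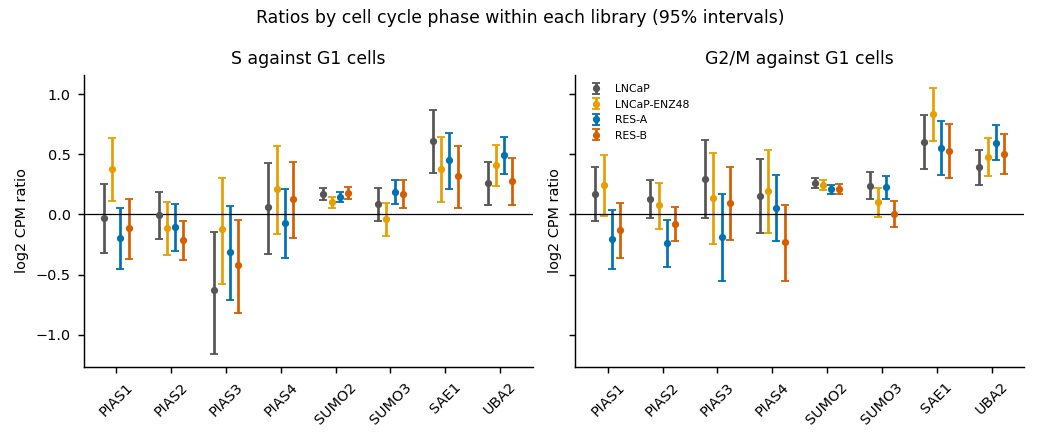
Log2 CPM ratio (vertical axis) of cells called S (left) or G2/M (right) to G1 cells of the same library for each of the 8 genes, with 95% intervals of counting error. SAE1, UBA2 and SUMO2 lie above 0 in all 4 libraries in both panels, and most intervals of the PIAS genes include 0.

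Among 7453 other genes, those with the most similar profile were found by the Euclidean distance of log2 CPM over the 4 libraries, each gene centred on its own mean. For PIAS2 these were FBXO42 (distance 0.0835), BAG1 (0.0881) and CPD (0.0993). BAG1, a cochaperone, was at 65.8 CPM in RES-B, 34.5 in RES-A, 42.2 in LNCaP-ENZ48 and 50.1 in LNCaP. For SUMO3 they were FAM45A, NUDT5 and NDUFAB1 (0.0216 to 0.0357), and for UBA2 they included the spliceosome gene SNRPA (0.0273) and RFLNB (0.0356). With 4 libraries many profiles are alike, and the distances carry no test.

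Of 23 other genes of the SUMO pathway, 17 or 18 were counted against LNCaP. In LNCaP-ENZ48, none was higher and 2 lower, against 3.97% and 13.0% of all counted genes, with a median of -0.05 against -0.07. The 2 were the protease gene SENP6 (-0.37) and the ligase gene ZMIZ1 (-0.33). In RES-A, 1 was higher and 6 lower, against 25.3% and 23.0% of all counted genes, with a median of -0.01 against 0.02. The largest of these were SENP6 (-0.66), SENP7 (-0.60), ZMIZ1 (-0.57) and the deSUMOylating peptidase gene DESI1 (-0.54). In RES-B, 5 were higher and 2 lower, against 30.7% and 17.4% of all counted genes, with a median of 0.17 against 0.11. The ligase gene ZNF451 (0.88) and RNF4 (0.59), which encodes a ubiquitin ligase for SUMO-modified proteins, were higher, and SENP7 (-0.72) and DESI1 (-0.56) lower. SENP6 was at 82.2 CPM in RES-B, 44.9 in RES-A, 55.1 in LNCaP-ENZ48 and 71.0 in LNCaP, the same order of libraries as PIAS2.

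Of 8 well known SUMO-modified proteins, 7 were counted in RES-B against LNCaP, of which 6 were higher and 1 lower, against 30.7% and 17.4% of all counted genes, with a median of 0.58 against 0.11. SP100 (1.94 [1.72, 2.16]) and DAXX (1.505 [1.42, 1.59]), which encode components of PML nuclear bodies, differed most. PML itself, which builds these bodies, was under the minimum level and not counted, at 4.68 CPM in RES-B against 7.65 CPM in LNCaP (-0.71 [-0.95, -0.47]). DAXX was at 81.7 CPM in RES-B, 33.8 in RES-A, 23.7 in LNCaP-ENZ48 and 28.8 in LNCaP. In RES-A, 3 of 6 were higher and none lower, against 25.3% and 23.0% of all counted genes, with a median of 0.28 against 0.02. PCNA (1.29) and TOP1 (0.74) differed most in RES-A. In LNCaP-ENZ48, none of 6 was higher and 1 lower, RANGAP1 (-0.48), against 3.97% and 13.0% of all counted genes. PCNA and RANGAP1 are also among the phase genes.

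Of 11 factors that PIAS proteins bind, 6 were counted against LNCaP. None passed in LNCaP-ENZ48, where 3.97% of all counted genes were higher and 13.0% lower, with a median of -0.15 against -0.07. In RES-A, 2 were higher and 1 lower, against 25.3% and 23.0% of all counted genes, with a median of 0.06 against 0.02, and SMAD4 was at -0.80. In RES-B, 1 was higher and 1 lower, STAT5B (-0.38), against 30.7% and 17.4% of all counted genes. The median was 0.03 against 0.11. Of 8 E1 enzyme genes of other ubiquitin-like modifiers, 5 were counted. None was past the fold in LNCaP-ENZ48 (median 0.06, against -0.07 for all counted genes, of which 3.97% were higher and 13.0% lower). Of the 5, 3 were higher and none lower in RES-A (median 0.35, against 0.02 for all counted genes, of which 25.3% were higher and 23.0% lower). The ubiquitin E1 gene UBA1 was at 0.80 there. In RES-B 2 were higher and 1 lower (median 0.15, against 0.11 for all counted genes, of which 30.7% were higher and 17.4% lower), with UBA6 at -0.50.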

How the data were processed

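Single-cell libraries (10x 3' v3, sorted living cells) of 4 groups, assigned from the sample titles, were analysed with 1 library per group. The deposited values are UMI counts per gene and barcode, which the authors made with Cell Ranger 3.0.2 on the GRCh38 reference supplied with it. The deposited gene and barcode lists name the rows and columns. Cells were filtered with the study's limits, which differ between libraries (LNCaP 3000 to 7000 genes, 16000 to 50000 UMIs and under 15% mitochondrial; the others 1500 to 5000 genes, 5000 to 25000 UMIs and under 15%, 17% and 20% in LNCaP-ENZ48, RES-A and RES-B). This kept 14727 of 17233 barcodes. No doublet caller was run. Cell Ranger counts only reads that map to 1 gene.

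Counts were summed per library. CPM intervals were exact Poisson, ratio intervals exact conditional binomial (Clopper-Pearson), and share intervals exact binomial, all at 95%. The depth behind each library sum, 50208831 to 60838227 UMIs, sets the width of these intervals. No test was run, since cells are not replicates. The ratio intervals and calls were tested on simulated data. Thinning, phase calls (scanpy 1.11.5) and scaling alternatives (edgeR 4.0.16, DESeq2 1.42.0) used fixed seeds. Coordinates came from GENCODE 44, in which 33113 gene IDs were found, and promoters from RefSeq. Named genes were all 8 members, the genes of 4 lists past a log2 ratio of 0.32 against LNCaP (up to 4 for the pathway list, up to 2 for the others, by absolute ratio) and the 3 genes most like each member past that fold. The members and lists were chosen with earlier results of these data known, and the low-oxygen genes after seeing the correlations. The correlated genes BNIP3, LDHA, PGK1, GAPDH and ENO1 were also named after their values were seen. KATNAL2 was named for its overlap with PIAS2, and SENP6, DAXX and BAG1 levels were picked out among the named genes. Some genes that this rule would name are not reported here.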

Additional observations from a re-analysis of the deposited data

Results flagged for a closer look

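For 4 genes, RES-A and RES-B lay on opposite sides of LNCaP with both counting intervals excluding 0. The difference between the lines was not tested, since each is 1 library. PIAS2 was at a log2 ratio of -0.5936 in RES-A but 0.4587 in RES-B, and its direction held with TMM scaling and with DESeq2 size factors. PIAS1 was at -0.196 and 0.1721, and PIAS3 at -0.2402 and 0.2859. With every cell thinned to 5000 UMIs in a single random draw, PIAS1 was at -0.507 in RES-A and -0.155 [-0.39, 0.09] in RES-B. In that draw the lines were no longer on opposite sides, while with each cell weighted equally PIAS1 was at -0.20 and 0.19. With TMM scaling the RES-B ratio of PIAS1 was 0.07 [-0.06, 0.19], and that of PIAS3 had an interval that reached 0. SUMO2 was at 0.05763 in RES-A and -0.09865 in RES-B, and its RES-A ratio was 0.00463 with TMM scaling and 0.01896 with DESeq2 size factors.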

How the results depend on the processing

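With 8 genes and 6 comparisons there were 48 ratios. All 48 stayed inside their counting interval with all deposited barcodes, with 1 filter for all libraries, without the 5% of cells with the most UMIs and without barcodes found in another library, and 47 did with each cell weighted equally. TMM scaling moved 24 ratios and DESeq2 size factors 25. TMM moved the median of all counted genes by -0.11 in RES-B against LNCaP, -0.15 in RES-A against LNCaP-ENZ48 and -0.20 in RES-B against LNCaP-ENZ48. Without the cells above the highest low-oxygen limit, chosen after seeing the data, the PIAS2 ratio of RES-B to LNCaP was -0.005814 in place of 0.46.

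The counts of genes past the limit, 0 to 2 per direction, changed as follows, and the cause was not tested except where a stricter limit left fewer genes. Percentages in parentheses are the shares of all counted genes past the limit in the same setting and direction. With TMM scaling and with DESeq2 size factors, 0 were higher in RES-A against LNCaP (21.9% and 23.0%). In RES-B against RES-A, 1 was higher (23.3% and 22.8%) and 1 lower (17.3% and 17.7%). In RES-B against LNCaP-ENZ48, 2 were lower (24.0% and 23.9%). Totals without mitochondrial and ribosomal protein genes also gave 0 higher in RES-A against LNCaP (22.6%). Thinned to 5000 UMIs, 1 was lower in LNCaP-ENZ48 against LNCaP (14.3%) and 2 lower in RES-A against LNCaP (23.5%). In RES-A against LNCaP-ENZ48, 1 was then higher (31.4%). In these thinned cells PIAS2 made up 49.82% of PIAS UMIs in LNCaP-ENZ48 and 57.3% in RES-B. Among G1 cells, 2 were higher in RES-B against LNCaP (33.1%) and 3 higher in RES-B against LNCaP-ENZ48 (38.9%). In RES-A against LNCaP-ENZ48, 1 was higher (30.4%) and 0 lower (17.7%) among G1 cells. Without the cells high in low-oxygen genes, 0 were higher in RES-B against LNCaP (30.4%) or LNCaP-ENZ48 (39.3%). Without them, 0 were lower in RES-A against LNCaP-ENZ48 (17.3%) and 1 lower in RES-B against RES-A (14.5%). All deposited barcodes (38.7%) or a minimum of 1 CPM (39.6%) gave 2 higher in RES-B against LNCaP-ENZ48. A fold of 1.5 (6.25% to 14.4%) or a minimum of 50 CPM (13.8% to 35.5%) left 0 or 1 in each count they changed. No paired analysis was possible because each group is 1 library.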
